A study of Mus musculus with 20 samples.

Results

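Immediate early genes are switched on within minutes of a stimulus, without new protein synthesis. The set described here was 10 such genes: the nuclear receptors Nr4a1, Nr4a2 and Nr4a3, and the early factors Fos, Fosb, Jun, Junb, Egr1, Atf3 and Ier2. They were listed by symbol, were chosen by their old against young values in these same arrays, and make up 10 of 18193 genes named on the array. The difference between old and young mice is therefore given for them as a description, with no test. Left ventricle and right ventricle were not distinguished in the labels: the RNA came from ventricles, frozen before extraction, of C57BL/6J males with no treatment or engineered allele stated. There were 10 young mice of 4 to 6 months and 10 old mice of 25 to 28 months, with 1 Affymetrix MOE430 2.0 array each. Group and age follow the sample titles and the treatment protocol, since the series' design text names both age ranges as young. All 20 mice were group-housed under pathogen-free barrier conditions, which is what the groups shared. Old replicates are numbered 1 to 10 and young replicates 11 to 20, as in the titles.

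Growth factors, calcium, stretch and catecholamines reach these genes through mitogen-activated kinases, calcium-dependent kinases and cyclic AMP, which act on factors such as SRF, the ternary complex factors, CREB and MEF2 that already sit at the promoters. The Nr4a proteins are orphan nuclear receptors that act without a known hormone and, in striated muscle, control genes of glucose and fat use. Fos and Jun family proteins pair to form AP-1, while Egr1 is a zinc-finger factor, Atf3 a stress-induced factor of the CREB family and Ier2 a small nuclear protein. The messages are short-lived, so their level in a frozen heart follows the last minutes to hours before freezing.

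The promoters of 5 of the genes are printed because these are the genes whose levels differed most between the ages (Nr4a1, Nr4a2, Atf3) or ran together with Nr4a1 from mouse to mouse (Fos, Junb). Each is 300 bases of the gene's strand, 250 before and 50 after the annotated start, from RefSeq on GRCm38.p6. The stretches are chr15:101266596-101266895 on the plus strand for Nr4a1, chr2:57123954-57124253 on the minus strand for Nr4a2, chr12:85473640-85473939 on the plus strand for Fos, chr8:84978699-84978998 on the minus strand for Junb and chr1:191183284-191183583 on the minus strand for Atf3. Capitals mark TGACG, or CGTCA where it lies on the other strand, which are the first 5 letters of the cyclic AMP response element TGACGTCA.
Nr4a1: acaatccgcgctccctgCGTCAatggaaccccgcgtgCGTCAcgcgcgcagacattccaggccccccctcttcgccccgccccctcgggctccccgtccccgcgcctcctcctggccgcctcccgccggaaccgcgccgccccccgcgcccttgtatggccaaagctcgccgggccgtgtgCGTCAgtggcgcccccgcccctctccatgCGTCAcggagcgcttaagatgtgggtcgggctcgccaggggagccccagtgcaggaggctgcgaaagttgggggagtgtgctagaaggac
Nr4a2: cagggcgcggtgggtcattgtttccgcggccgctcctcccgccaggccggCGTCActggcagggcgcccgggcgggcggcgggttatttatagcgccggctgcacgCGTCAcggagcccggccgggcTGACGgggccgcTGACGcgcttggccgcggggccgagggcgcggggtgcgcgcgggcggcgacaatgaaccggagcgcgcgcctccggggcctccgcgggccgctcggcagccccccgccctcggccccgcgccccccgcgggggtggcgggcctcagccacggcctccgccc
Fos: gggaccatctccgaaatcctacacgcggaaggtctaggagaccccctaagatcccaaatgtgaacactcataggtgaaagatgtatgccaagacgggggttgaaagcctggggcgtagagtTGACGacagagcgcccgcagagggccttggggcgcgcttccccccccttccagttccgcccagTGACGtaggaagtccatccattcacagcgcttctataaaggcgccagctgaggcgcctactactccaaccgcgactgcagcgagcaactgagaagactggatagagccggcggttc
Junb: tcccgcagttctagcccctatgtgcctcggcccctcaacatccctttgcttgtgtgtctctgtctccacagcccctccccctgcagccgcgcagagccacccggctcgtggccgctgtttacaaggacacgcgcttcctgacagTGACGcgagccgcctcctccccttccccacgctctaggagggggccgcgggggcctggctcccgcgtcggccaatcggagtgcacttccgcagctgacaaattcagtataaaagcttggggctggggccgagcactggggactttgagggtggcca
Atf3: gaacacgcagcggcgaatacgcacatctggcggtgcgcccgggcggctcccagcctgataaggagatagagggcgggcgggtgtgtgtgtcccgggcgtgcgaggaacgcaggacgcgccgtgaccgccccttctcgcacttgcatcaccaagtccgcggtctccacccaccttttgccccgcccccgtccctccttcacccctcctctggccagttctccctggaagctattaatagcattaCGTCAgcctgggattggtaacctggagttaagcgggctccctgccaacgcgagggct

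Of the 10 genes, 8 had a window in the RefSeq table (all but Egr1 and Ier2). TGACG on either strand was present in 7 of these 8 windows, against 20.8% of 32851 windows of the same length. Nr4a1, Nr4a2 and Nr4a3 each held 4 matches, Fos 2, and Fosb, Junb and Atf3 1 each. Jun held none. The 4 matches of Nr4a1 all lay on the strand opposite to the gene, and the 2 of Fos on its own strand. The full TGACGTCA, the AP-1 motif TGACTCA, the serum response CArG box and the Nr4a response element AAAGGTCA were in 0 of the 8 windows, against 1.79%, 5.20%, 1.63% and 1.51% of all windows. TATAAA was in 3 of them, those of Nr4a2, Fos and Junb, against 13.6%. Both strands were searched in each case, and TGACG is part of TGACGTCA. A match describes these letters and says nothing of whether a factor was bound.

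Each value is a log2 signal: 1 unit is a doubling, undetected messages lie near 2 to 3, and 4 was taken as the floor for detection. A gene was tested when a probe set of it exceeded 4 in at least 10 of the 20 arrays, which 9275 genes did. Array medians ran from 3.07 to 3.20, and the 3′ minus 5′ control difference, a measure of RNA integrity, was 0.40 ± 0.10 in old and 0.39 ± 0.08 in young arrays (SD, n = 10 each). All 7 genes listed as ventricular muscle markers (Myl2, Myl3, Myh6, Tnni3, Tnnt2, Actc1 and Irx4) were above the floor in both groups. Whether they tell ventricular from atrial muscle was not tested. The largest difference among them was -0.58 for Irx4 (6.10 ± 0.72 in old and 6.68 ± 0.34 in young arrays). The atrial genes Myl7 and Sln did not exceed 4 in any young array and did in 9 old arrays; Myl7 was above 10 in 7 old arrays and reached 14.55, while old replicates 1, 2 and 7 read 2.36, 8.27 and 6.58. The per-array mean of the 6 atrial markers was 5.05 to 12.9 in old and 4.91 to 5.36 in young arrays, with 3 of 3 tested members higher. The mean of the 8 macrophage markers was 6.81 to 7.81 in old and 6.32 to 6.98 in young arrays, with 5 of 7 tested members higher. The arrays also fell into 5 sets of 2 old and 2 young that shared a pattern over all genes (mean correlation 0.40 within and -0.13 between sets). Differences are therefore also given within sets and without the 7 old arrays.

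The age difference was not shared by the 10 genes. Nr4a1, Nr4a2 and Atf3 were lower in old hearts, with log2 differences (old minus young) of -1.98, -1.31 and -0.98. Nr4a3, Fos and, by its brighter probe set, Jun were lower by less than their spread within a group. The dimmer probe set of Jun was lower by more than that spread. Junb, Egr1 and Ier2 were higher by less than their spread. In all, 7 genes, the undetected Fosb among them, had a lower and 3 a higher mean in old mice, with a median difference of -0.28. Over the detected genes alone the median was -0.38. Of the 9275 tested genes, 4514 had an estimate below 0. No gene of the set separated the groups completely. Over the 9275 tested genes 1.78% did so, and 0.42% did so with the old arrays lower. Fosb did not pass the filter, so 9 of the 10 genes and 10 of their 18 probe sets were detected.

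**Figure D1:**
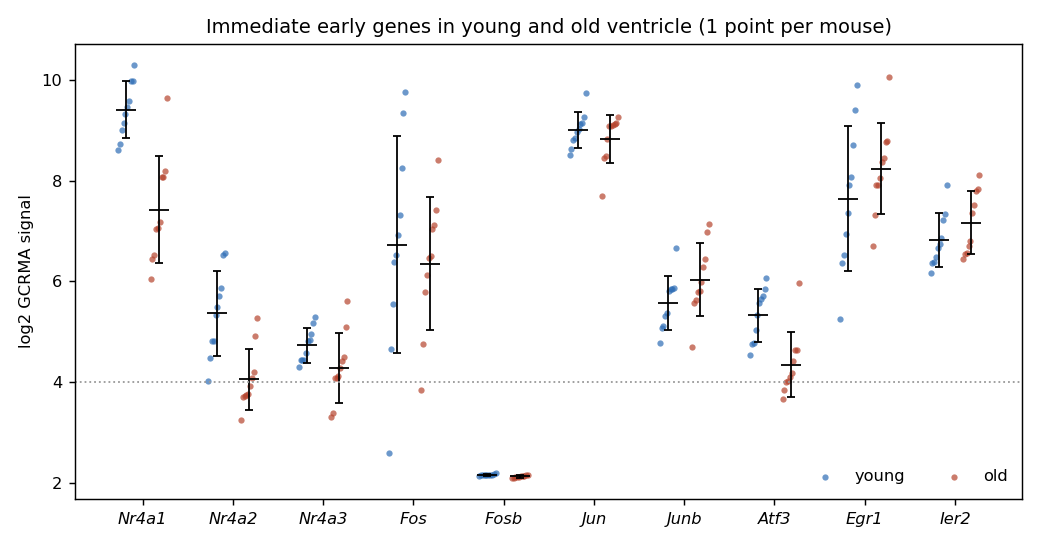
Log2 GCRMA signal (vertical axis) of each gene, with 1 point per mouse, young in blue and old in red, horizontal bars at the mean and whiskers of 1 SD (n = 10 each). The dotted line is the floor of 4. Old Nr4a1 values lie below the young ones except for the array at 9.63, Nr4a2 and Atf3 are shifted down with overlap, Fos and Egr1 spread over many units in both ages, and Fosb lies at about 2 in every mouse.

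Nr4a1, also called Nur77, is induced by beta-adrenergic signals in muscle. In young hearts its lowest, median and highest log2 levels were 8.61, 9.39 and 10.30. In old hearts they were 6.06, 7.11 and 9.63. Old replicate 10 alone reached into the young range, while the other 9 old mice lay below every young mouse. The mean was 7.42 ± 1.07 in old and 9.41 ± 0.56 in young mice (SD, n = 10 each), which is 3.95-fold lower with age. The 3 old arrays with Myl7 below 10 read 6.06, 7.06 and 6.44, all under the old median.

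Nr4a2, or Nurr1, known best for its part in dopamine neurons, was near the floor in old hearts. Its levels ran from 3.25 through a median of 3.84 to 5.28 in old and from 4.03 through 5.42 to 6.56 in young mice. All 10 young arrays but only 4 old arrays exceeded 4, so the size of the difference, -1.31 or 2.47-fold, is bounded by the floor. The means were 4.06 ± 0.61 and 5.36 ± 0.84 (SD, n = 10 each). Of the old mice, 6 lay below every young mouse and all 10 lay below the young median. These values come from 1 of 6 probe sets. The other 5 did not exceed 4 in any array and carry no information on the difference.

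Nr4a3, or Nor1, the third receptor of the family, had the smallest difference of the 3 receptors. Old levels ran from 3.32 through 4.19 to 5.61 and young levels from 4.29 through 4.70 to 5.30. The highest single array was old replicate 8, and 6 old arrays lay below all young ones. The means of 4.28 ± 0.69 and 4.73 ± 0.34 differ by -0.44, less than the spread within a group. The size of this difference is bounded by the floor, since 8 old arrays and all 10 young arrays exceeded 4. The other 2 of its 3 probe sets did not exceed 4 in any array.

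Fos, the classical early gene and AP-1 partner, varied by far more between mice of one age than between ages. Young levels ran from 2.59 (undetected) through 6.72 to 9.76 and old levels from 3.85 through 6.48 to 8.40. The means were 6.35 ± 1.32 in old and 6.73 ± 2.15 in young mice (SD, n = 10 each), a difference of -0.38. Without young replicate 13 the difference was -0.84, and without young replicate 20 it was -0.04, so single mice set its size. The young group supplied both the lowest array, replicate 13, and the 2 highest, replicates 20 and 15.

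Fosb, a close relative of Fos, was not detected. Its 1 probe set read between 2.09 and 2.20 in all 20 arrays, so the difference of -0.03 describes the floor of the method.

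Jun is the main partner of Fos in AP-1. Its brighter probe set ran from 7.69 through 9.09 to 9.26 in old and from 8.50 through 8.99 to 9.74 in young mice. The means of 8.82 ± 0.48 and 9.0 ± 0.35 differ by -0.18, or by -0.05 without old replicate 1. Its dimmer probe set gave 7.68 ± 0.43 in old and 8.20 ± 0.25 in young mice, a difference of -0.53, with 8 old arrays below all young ones. The 2 probe sets of Jun therefore gave the same sign and unequal sizes. The difference of the dimmer one exceeded its pooled SD within groups, 0.35, and that of the brighter one did not exceed its own, 0.42.

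Junb, an AP-1 subunit that often opposes Jun, was on average higher in old mice. Levels ran from 4.69 through 5.90 to 7.13 in old and from 4.78 through 5.60 to 6.66 in young arrays. The means of 6.03 ± 0.72 and 5.57 ± 0.54 differ by 0.47, less than the spread within a group. Both the lowest array, old replicate 1, and the highest, old replicate 5, were old.

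Atf3, which is induced by many forms of cell stress, was lower in old hearts. Its levels ran from 3.66 through 4.14 to 5.96 in old and from 4.54 through 5.45 to 6.06 in young mice. The means of 4.35 ± 0.65 and 5.32 ± 0.52 (SD, n = 10 each) differ by -0.98, or 1.97-fold. There were 7 old mice below all young ones, and old replicate 5 at 5.96 stood well above the other old mice. The floor bounds this difference too, since 8 old arrays and all 10 young arrays exceeded 4.

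Egr1, a zinc-finger factor with the same serum-response input as Fos, was not lower in old hearts. Its levels ran from 6.70 through 8.21 to 10.05 in old and from 5.26 through 7.63 to 9.90 in young mice. The means of 8.23 ± 0.91 and 7.64 ± 1.45 differ by 0.59, well inside the spread, and by 0.33 without young replicate 13. The groups overlapped almost entirely. Ier2, whose protein acts in the nucleus on early transcription, read 6.45 through 7.07 to 8.10 in old and 6.17 through 6.71 to 7.91 in young mice. Its means of 7.16 ± 0.62 and 6.81 ± 0.53 differ by 0.35.

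The lower Nr4a1, Nr4a2 and Atf3 of old hearts were seen in each of the 5 array sets. The set differences ran from -2.59 to -1.09 for Nr4a1, from -2.26 to -0.52 for Nr4a2 and from -1.33 to -0.36 for Atf3. Fos and Egr1 differed in sign between sets: Fos ran from -2.90 to 2.28 and Egr1 from -1.29 to 2.60, each lower in 2 sets and higher in 3. Junb and Ier2 were each higher in 4 of the 5 sets, and Nr4a3 and Jun were each lower in 4. Each set holds only 2 mice per age, so 1 mouse can turn such a value.

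Leaving out the 7 old arrays with strong Myl7 left 3 old mice, and every one of the 10 genes then had a lower mean than in young mice. Fosb, at -0.04, is at the floor and carries no information there. The differences were -2.89 for Nr4a1, -1.65 for Nr4a2 and -1.34 for Atf3. Fos went from -0.38 to -1.82 and Jun from -0.18 to -0.68. Junb, Egr1 and Ier2 turned sign, to -0.20, -0.33 and -0.24. With the atrial signal as a covariate the differences were -2.55 for Nr4a1, -1.63 for Nr4a2, -1.13 for Atf3, -1.28 for Fos and -0.48 for Jun. Junb and Ier2 stayed above 0 with it, at 0.30 and 0.10, and Egr1 was at -0.09. The differences of Nr4a1, Nr4a2 and Atf3 were thus at least as large without the 7 arrays, while the sign for Junb and Ier2 was not the same in both settings. Of the 3 retained old arrays, 2 also carried Myl7 above the young range. The part of atrial tissue in these values was not tested. In whole tissue, fewer cells of a type and less RNA per cell cannot be told apart.

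**Figure D2:**
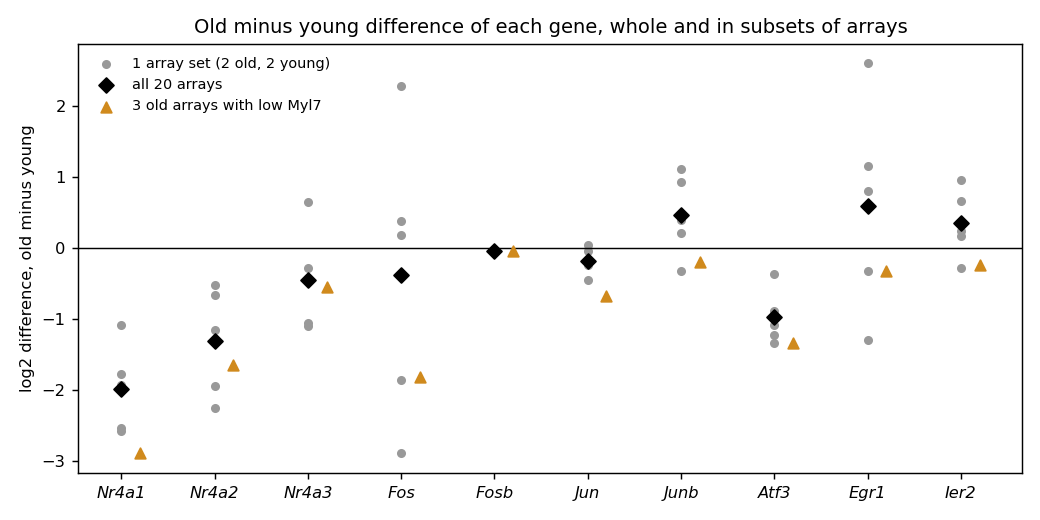
Old minus young log2 difference (vertical axis) of each gene over all 20 arrays (diamonds), in each of 5 array sets of 2 old and 2 young mice (grey points) and with the 3 old arrays with Myl7 below 10 alone (triangles). Nr4a1, Nr4a2 and Atf3 lie below 0 in every subset, from -0.36 to -2.89, while Fos and Egr1 span 0.

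Variation between mice of the same age was large for most of these genes. The spread within a group was among the values set out for this set, so it is described here with no test. The within-age SD of Fos was 1.78 log2 units, the fifth highest of the 9275 tested genes, against a median gene at 0.29. Egr1 followed with 1.21 (99.7th percentile of all tested genes), Nr4a1 with 0.85 (98.7th) and Nr4a2 with 0.73 (97.8th). Junb, Atf3, Ier2 and Nr4a3 lay between 0.64 and 0.55, and Jun, at 0.42 and the 82.0th percentile, was the steadiest of the 9 detected genes. The array sets held 20.2% of the within-age variance of Nr4a1 and 12.9% of that of Nr4a2, against a median of 54.1% over all genes, and 62.1% of that of Jun.

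Mice of one age also ranked alike for several of the genes. How the genes ran together within an age was not used to choose them. It was tested on deviations from the age-group mean over 20 arrays, with two-sided permutation within ages (100000 resamples) and Benjamini-Hochberg adjustment over 45 pairs. In 13 of the 45 pairs the adjusted p was under 0.05, and all 13 were positive. None of the 9 pairs with Fosb, which is at the floor, was among them. The median r of the 36 pairs without Fosb was 0.47, against 0.01 over all 43008175 pairs of tested genes, and 6.3% of all gene pairs reached 0.56, the smallest r among the 13. After the array sets were removed as well, 16 pairs passed by the exact permutation test within sets, 11 of them shared with the 13, and the median r was 0.39.

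Fos and Egr1 formed the closest pair. Their r was 0.90 (permutation p = 2e-05, adjusted p = 0.00045, which is near the smallest these resamples allow) and rho was 0.91 (permutation p = 1e-05). It was 0.83 without the 2 mice farthest from the Fos median, 0.88 with the array sets removed, 0.88 in the young and 0.97 in the old mice. Young replicates 20 and 15 were highest for both genes in their group, at 9.76 and 9.34 for Fos and 9.90 and 9.41 for Egr1. Young replicate 13 was lowest for both, at 2.59 and 5.26. Among old mice, replicate 10 was highest for both, at 8.40 and 10.05, and replicate 7 lowest, at 3.85 and 6.70.

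Nr4a1 and Nr4a2 were the only pair of receptors that passed before the array sets were removed. Their r was 0.76 (permutation p = 2e-05, adjusted p = 0.00045) and rho 0.80 (permutation p = 1e-04), with 0.69 without the 2 farthest mice, 0.73 with the sets removed and 0.85 in each age alone. Old replicate 10, the mouse with young-like Nr4a1, also had the highest old Nr4a2, and old replicate 1 had the lowest level of both. Nr4a3 was in no pair that passed before the sets were removed. Its highest r was then 0.42 with Nr4a2, with an adjusted permutation p of 0.11. With the sets removed that pair had r = 0.57 and passed the exact permutation test within sets (adjusted p = 0.036).

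Nr4a1 was tied to the AP-1 and Egr side as well. It ran with Junb at r = 0.76 (adjusted permutation p = 0.0033), rho = 0.80, with 0.83 without the 2 farthest mice and 0.72 with sets removed. It ran with Fos at r = 0.63 (adjusted permutation p = 0.0036), rho = 0.73, with 0.59 and 0.74 under the same changes, and at 0.54 in young against 0.90 in old mice. The difference between the ages was not tested. Its pair with Egr1 was looser, at r = 0.56 (adjusted permutation p = 0.014) and rho = 0.62, with 0.43 without the 2 farthest mice and 0.68 with sets removed. That pair did not pass without old replicate 10, when r was 0.45.

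Junb and Ier2 ran together at r = 0.79 (adjusted permutation p = 0.0012), rho = 0.76, 0.75 without the 2 farthest mice and 0.70 with sets removed. Fos, Egr1, Ier2 and Junb made 6 pairs with r from 0.51 to 0.90, of which 5 passed. Of the others, Atf3 with Ier2 (r = 0.68) and Jun with Junb (r = 0.64) did not pass the exact permutation test (adjusted p = 0.23 and 0.067). With the sets removed their r was 0.46 and 0.44. Jun with Junb did not pass without old replicate 1, and Nr4a2 with Junb (r = 0.60) did not without old replicate 1 or young replicate 15. In young mice alone 3 pairs passed and in old mice alone 7.

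**Figure D3:**
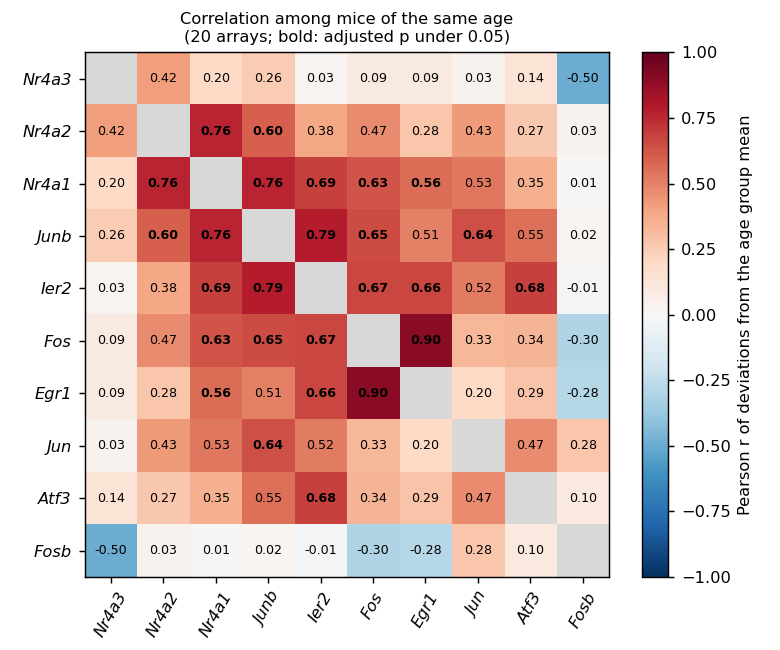
Pearson r of deviations from the age-group mean for each pair of genes over 20 arrays, with red above and blue below 0 and bold type where the adjusted p was under 0.05. Fos with Egr1 (0.90), Junb with Ier2 (0.79) and Nr4a1 with Nr4a2 and with Junb (0.76 each) are the highest, and the rows of Nr4a3 and Fosb hold no bold value.

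The age difference was also computed at a matched level of another early gene. Within an age, Nr4a1 was 0.39 log2 units higher per unit of Egr1. At a given Egr1 level the old minus young difference was -2.22 for Nr4a1, -1.41 for Nr4a2 and -1.06 for Atf3, slightly larger than the plain differences, since mean Egr1 was higher in old mice. At a given Fos level the values were -1.87, -1.23 and -0.93. These are descriptions of the same contrast that chose the genes.

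**Figure D4:**
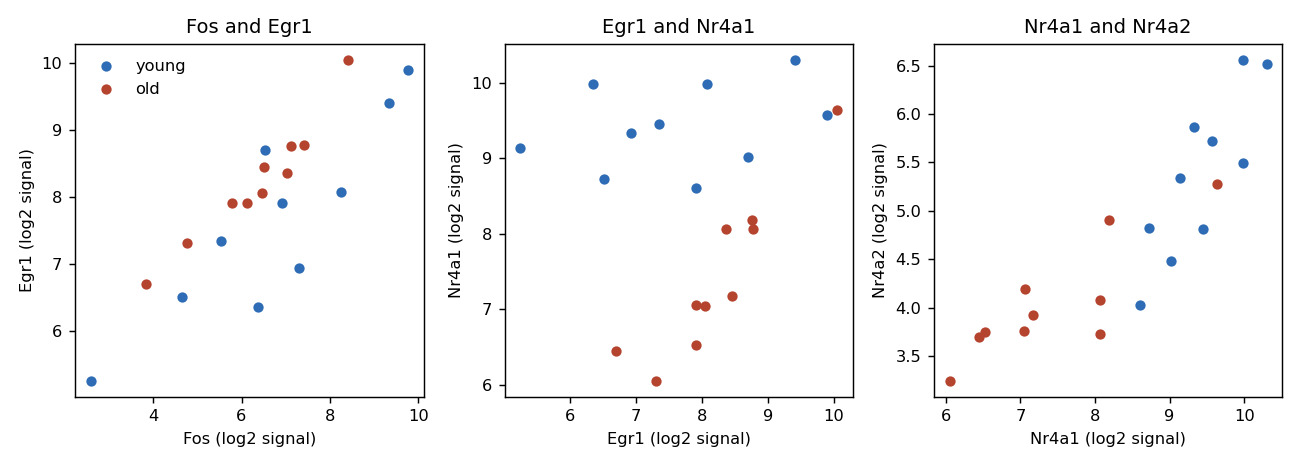
Log2 signal of Egr1 against Fos, Nr4a1 against Egr1 and Nr4a2 against Nr4a1, with 1 point per mouse, young in blue and old in red. Fos and Egr1 rose together in both ages, with many old mice above young mice of a like Fos level. Old replicate 10 read 8.40 for Fos and 10.05 for Egr1, against 8.25 and 8.08 in young replicate 16. The other way round, young replicate 14 read 6.53 and 8.71, against 6.50 and 8.46 in old replicate 4. For Egr1 and Nr4a1 the old mice form a lower band, from 6.06 to 9.63, that meets the young mice only at old replicate 10.

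The genes most like Nr4a1 and Fos across mice of one age included other early genes. Outside the set, Nr4a1 was closest over 20 arrays to Dusp1 (r = 0.74), the phosphatase that ends mitogen-activated kinase signals, Zfp36 (0.70), which speeds the decay of unstable messages, and Btg2 (0.68), an antiproliferative early gene, followed by Gpr180 (0.66) and Colec12 (0.66). Fos was closest to Dusp1 (0.84), Egr3 (0.80), Btg2 (0.75), Hddc3 (0.75) and Mapre2 (0.72). Of 65 other tested early genes, 6 were among the 100 genes closest to Nr4a1 (Btg2, Dusp1, Egr2, Egr3, Klf2 and Zfp36) and 10 among the 100 closest to Fos. Their median r was 0.19 with each, against 0.003 and 0.04 over all genes. All genes come from the same 20 arrays, so these values share array quality and tissue makeup. Dusp1, the gene outside the set closest to Nr4a1, was 10.4 ± 0.45 in old and 10.8 ± 0.51 in young mice. It did not pass between ages (adjusted p of 0.183 in limma).

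The genes were also set against Hspa1b, the 3′ minus 5′ control difference, the macrophage marker mean and, in old mice, Myl7. In the permutation test 0 of these 40 relations had an adjusted p under 0.05, 4 had an unadjusted p under 0.05, and 0 passed with rho. The smallest unadjusted p was that of Junb with the 3′ minus 5′ difference, at r = -0.64 (permutation p = 0.0031, adjusted p = 0.096) and rho = -0.65 (permutation p = 0.0031), with -0.53 without the 2 farthest mice and -0.47 with sets removed. For the other detected genes r with this difference was also below 0, from -0.46 for Nr4a3 and -0.44 for Nr4a1 to -0.07 for Egr1. It was 0.11 for Fosb. With sets removed Jun and Atf3 were above 0, at 0.05 and 0.20. The part of RNA integrity in the correlated pairs was not tested. The other 3 relations with an unadjusted p under 0.05 were those of Fos, Jun and Egr1 with Myl7 in old mice. Their r was 0.74, 0.84 and 0.70 (adjusted permutation p = 0.18, 0.096 and 0.24) and rho 0.59, 0.42 and 0.64. For Jun r was 0.20 without the 2 farthest mice. Over the 10 genes r with Myl7 ran from 0.05 for Fosb to 0.84 for Jun. Old Myl7 values were uneven, at 2.36 to 8.27 in 3 mice and 12.1 to 14.6 in the other 7. Fos read 4.75, 6.13 and 3.85 in the 3 old mice with Myl7 below 10 and 5.79 to 8.40 in the other 7. Nr4a1 showed no relation to Hspa1b that passed (r = -0.02, permutation p = 0.92, rho = 0.15, permutation p = 0.54).

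Beyond the set, 86 other early genes were named on the array and 65 were tested. These genes and the lists below were chosen with earlier results of these data known. With limma, 14 were higher and 3 lower in old hearts, 26.2% of them, against 18.7% of all tested genes (11.2% higher and 7.49% lower). Their median difference was 0.12, against 0.01 for all genes.

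Among early transcription factors, 7 of 24 rose and 0 fell, 29.2% of them against 18.7% of all tested genes. In this list 8 estimates were below 0, with a median of 0.22. Id2, an inhibitor of helix-loop-helix factors, rose from 6.70 ± 0.43 to 8.80 ± 0.75 (SD, n = 10 each; difference 2.11 ± 0.25 SE, limma adjusted p = 5.4e-06), and all 10 old mice lay above all young ones. Bhlhe40, a repressor tied to the circadian clock, rose by 0.89 (limma adjusted p = 0.00032), Id3 by 0.68, the survival factor Ier3 by 0.79 and Klf10, a TGF-beta induced factor, by 0.66. Egr3 (4.32 in old and 3.79 in young mice, limma adjusted p = 0.33) and Egr2 (4.31 and 4.39, limma adjusted p = 0.78), relatives of Egr1, did not pass.

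Among early feedback and signalling genes, 5 of 30 rose and 2 fell, 23.3% of them against 18.7% of all tested genes, with a median of 0.05. Socs3, which blocks cytokine receptors, rose by 1.17 (limma adjusted p = 0.0043) and Nfkbiz, a nuclear NF-kappa-B cofactor, by 1.07 (limma adjusted p = 0.0017). The message-decay factor Zfp36l2 rose by 0.70 and Tiparp by 0.40. Errfi1, an inhibitor of the EGF receptor, fell by 0.56 (limma adjusted p = 0.011). Among early secreted and surface genes, 2 of 11 rose and 1 fell, 27.3% of them. Thbs1, a matrix protein that platelets also store, went from 3.68 ± 0.45 to 6.32 ± 1.10 (difference 2.64 ± 0.34 SE, limma adjusted p = 1.3e-05) and the matrix protein Ccn2 from 9.20 ± 0.54 to 11.1 ± 1.10, while Ccn1, a relative of Ccn2, fell by 0.60 (limma adjusted p = 0.020). The platelet markers were higher in old hearts too, by 3.53 for Ppbp, 1.53 for Pf4 and 4.16 for Clec1b, the 3 of 5 that were tested. The per-array mean of all 5 was 5.31 to 9.77 in old and 4.05 to 5.12 in young arrays, and their part in the Thbs1 value was not tested.

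Of 26 tested kinases and factors upstream of the early genes, 2 rose and 2 fell, with a median of -0.01. That is 15.4% of the list, below the 18.7% of all tested genes. Hdac4, a deacetylase that represses MEF2, fell by 0.54, from 5.94 ± 0.22 to 5.40 ± 0.14 (limma adjusted p = 0.00027). The catalytic subunit of protein kinase A, Prkaca, fell by 0.32, and the kinase Map2k1 and the ternary complex factor Elk3 rose by 0.28 and 0.34. Prkaca did not pass without old replicate 5. Creb1 (limma adjusted p = 0.15), Srf (0.26), Mef2a (0.80), Mef2c (0.94) and Mef2d (0.66) did not pass, with differences of 0.32, 0.21, -0.06, -0.02 and -0.06.

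In the list of Nr4a partner receptors and muscle fuel genes, 7 of 14 fell and 1 rose, with a median of -0.36. That is 57.1% of the list, against 18.7% of all tested genes (7.49% lower). With the atrial covariate 2 of the list passed, and without the 7 old arrays 1, against 3.74% and 2.93% of all genes. The partner receptors Rxra and Rxrg, with which Nr4a1 and Nr4a2 can pair, fell by 0.41 (limma adjusted p = 0.0061) and 0.50 (0.023). The glycolytic enzyme Eno3 went from 13.7 ± 0.11 to 13.3 ± 0.21 (limma adjusted p = 0.0035), and Fbp2, the muscle fructose-bisphosphatase, fell by 0.63. Phka1, a subunit of phosphorylase kinase, rose by 0.90 (limma adjusted p = 0.0036).

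Among inducible heat shock genes, 5 of 8 fell and 0 rose, 62.5% of the list against 18.7% of all tested genes, with a median of -0.82. Hspa1b fell by 3.25 and Hspa1a by 3.17, with young SDs of 2.26 and 2.15, so young mice differed widely. Both are near-identical copies, so their separate values are uncertain. Dnajb1, a co-chaperone, fell by 1.34, and Hsph1, an exchange factor, fell by 1.19. Bag3, whose adjusted p was 0.046, lost its call in 14 of 20 refits with 1 mouse omitted.

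**Figure D5:**
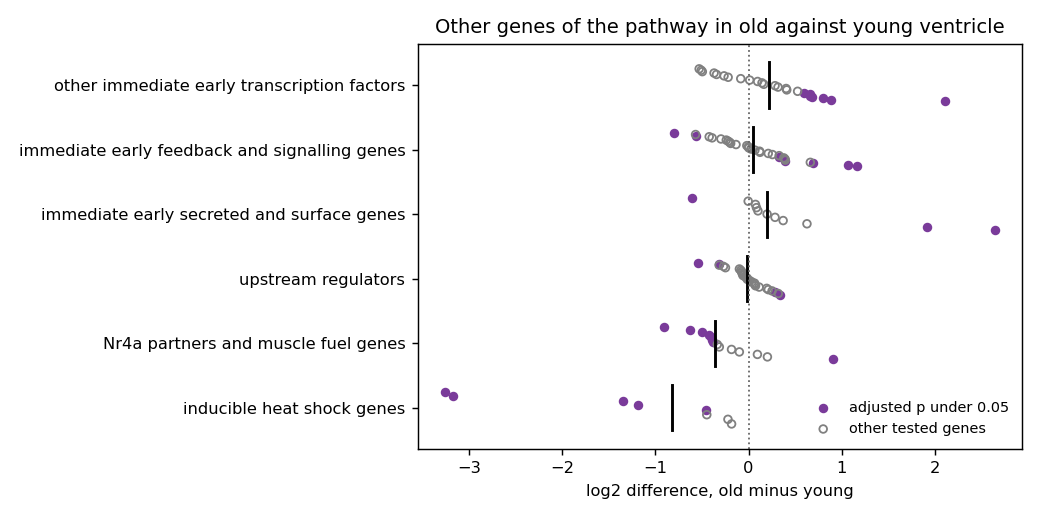
Old minus young log2 difference (horizontal axis) of each tested gene in 6 lists, with filled points where the limma adjusted p was under 0.05, open points for the others and a vertical bar at the list's median. Most filled points of the early lists lie above 0, and those of the partner and heat shock lists lie below 0 apart from Phka1.

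The counts differed between settings for the atrial signal and the array sets. With the atrial covariate, 4 early genes were higher and 0 lower, while the share of all genes that passed was 3.74% (2.81% higher and 0.927% lower). Without the 7 old arrays, 4 were higher and 1 lower, with 2.93% of all genes passing (2.25% and 0.679%). With the 5 array sets as a block, 19 were higher and 6 lower, with 36.1% of all genes passing (19.4% and 16.7%). The sets were clustered from these same values, so the spread left in this fit is smaller by construction and its p-values run low. Id2, Bhlhe40, Zfp36l2, Thbs1 and Phka1 passed in each of these 3 fits, and all 27 list genes named by rule kept their sign. Sizes did not always hold. Without the 7 old arrays the difference was -0.02 for Fbp2, 0.70 for Ccn2, 0.44 for Nfkbiz, -0.24 for Rxrg and -0.16 for Prkaca, and with the atrial covariate it was -0.29, 0.92, 0.66, -0.29 and -0.20. None of these 5 passed in either setting. Others kept their size and lost their call: with the covariate Ier3 was at 0.84, Socs3 at 1.19 and Klf10 at 0.69. Without the 7 arrays 0 heat shock genes passed, yet Hspa1b was at -3.63, Hspa1a at -3.49, Dnajb1 at -1.38 and Hsph1 at -1.20.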

How the data were processed

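Total RNA from 20 ventricles, 1 array per mouse, was measured on MOE430 2.0 arrays. The deposited table holds log2 values made with GCRMA, per the submitters' processing notes. GCRMA corrects background by probe sequence and puts undetected messages near a common low value, which compresses differences of dim genes such as Nr4a2, Nr4a3 and Atf3. Its version is not given in the sources used here, and the log base is inferred from their range (0.98 to 16.0). The table has 45101 probe sets, of which 64 were controls; 34945 had 1 gene in the platform annotation, 932 had several and 9160 had none listed. Names were updated through RefSeq's GRCm38.p6 gene table (34741 probe sets matched).

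A probe set passed when it exceeded 4 in at least 10 of the 20 arrays, and the brightest passing probe set, by its mean over arrays, stood for a gene. Old and young were compared over 9275 genes with limma 3.58.1 (lmFit and eBayes, R 4.3.3), no covariate, Benjamini-Hochberg adjustment and an adjusted p under 0.05. The set's genes were part of this fit across all genes, and since they were chosen on that contrast no p or call of theirs is reported. Correlations used deviations from age-group means and 100000 permutations within ages. With array sets removed, all 1024 arrangements within set and age were enumerated, which leave the mean of each age in each set fixed. The smallest p is 1e-05 in the first and 0.000977 in the second. Scripts were tested on simulated data. The 5 sets came from clustering the arrays' deviations. The atrial covariate was the mean linear signal of Myl7 and Sln relative to the highest array.

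The 10 genes and all lists (159 entries, 148 matched) were chosen with earlier results of these data known. Named were the 10 genes, the top 5 genes by p among those passing in each list, the 5 genes closest to Nr4a1 and to Fos, and Hspa1a and Hspa1b. Dusp1, Egr2, Egr3, Creb1, Srf and the Mef2 genes were named after their values were seen. Marker lists covered ventricular, atrial, macrophage, fibroblast, endothelial, smooth muscle, platelet, red cell, neutrophil, adipocyte and lymphocyte genes. Tested markers higher in old arrays numbered 0 of 7 ventricular, 3 of 7 fibroblast, 1 of 6 endothelial, 1 of 4 smooth muscle, 3 of 3 platelet, 1 of 1 red cell, 2 of 2 neutrophil, 0 of 1 adipocyte and none of the untested lymphocyte genes; 0 were lower. P-values measure only the spread between these mice. The number of arrays limits the precision.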

Additional observations from a re-analysis of the deposited data

Results flagged for a closer look

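In 11 of 90 groups of 10 arrays examined, 1 array lay far from the other 9, by a gap large against the group's range. Chance sets apart about 1 in 20 groups. Of the 20 groups formed by the 10 early genes, 3 were among them. Young replicate 13 read 2.20 for Fosb, above the other young arrays but at the floor. Old replicate 1 read 7.69 for Jun, below the other old mice. Old replicate 5 read 5.96 for Atf3, above the other old mice.

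Old replicate 5 was also the highest old mouse for Ier3 (10.74), Socs3 (9.85), Errfi1 (9.04) and Map2k1 (8.02). Old replicate 10, the mouse with young-like Nr4a1, was highest for Gpr180 (8.13) and lowest for Thbs1 (3.78). Old replicate 8 was highest for Zfp36l2 (10.07), and young replicate 20 for Socs3 (8.82).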

How the results depend on the processing

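Each gene of the set kept the sign of its difference under quantile normalization, median centring, the mean of probe sets and every fit that left out 1 array; some sizes moved by over 1.5 times with 1 mouse, as given for Fos, Jun and Egr1, and the median difference ran from -0.34 to -0.12 in the last. The scaling moved the split of calls over all genes: 59.9% were higher in old arrays as deposited, 43.1% after quantile normalization and 41.1% after median centring. Without the filter 4345 genes passed in place of 1732 and 5 early genes were lower; this setting tests more genes. With the array sets as a block, which were clustered from these same values, 3344 genes passed, 6 early genes were lower and 9 upstream regulators passed. With the atrial covariate the counts were 347 of all genes, 4 early genes (4 higher, 0 lower), 1 upstream regulator, 2 partner genes and 3 heat shock genes. Without the 7 old arrays, which leaves 3 old mice, they were 272, 5 (4 higher, 1 lower), 0, 1 and 0 (the heat shock differences were as large as before), and 4 correlated pairs passed in place of 13; 3 passed in young and 7 in old mice alone. The cause of these shifts was not tested. Leaving out 1 array gave 1391 to 1830 genes, 15 to 18 early genes (12 to 15 higher, 3 to 4 lower), 3 to 5 upstream, 6 to 9 partner and 4 to 6 heat shock genes, and 11 to 16 pairs. Of the 27 list genes named, Elk3 did not pass after quantile normalization, Elk3 and Map2k1 after median centring, and Tiparp, Errfi1 and Elk3 with the mean of probe sets. No paired analysis was possible because the old and young mice share no replicate number; the array sets are clusters found in the data, not pairs.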
